A study of Mus musculus with 4 samples.

Results

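The genes described here encode the platelet-derived growth factors (PDGF) and their receptors in the mouse parietal peritoneum, a serous membrane that lines the wall of the abdomen. They were chosen by name and comprise the ligand genes Pdgfa, Pdgfb, Pdgfc and Pdgfd, the receptor genes Pdgfra and Pdgfrb, and the receptor-like gene Pdgfrl. All 7 were measured, out of 18193 genes on the array, by 15 probe sets (groups of short oligonucleotides that report on one transcript). RNA came from C57BL/6J mice that were either wild type (WT) or carried SAP-BNP-Tg, a brain natriuretic peptide transgene under the serum amyloid P promoter, which is best known as the promoter of a liver-made plasma protein. Mice of each genotype were injected intraperitoneally with chlorhexidine gluconate (CG), an antiseptic that irritates the peritoneum, or with ethanol/PBS, called vehicle here. The CG solution was 0.1% in 15% ethanol and 85% PBS, and 0.01 mL per gram of body weight was given 3 times a week over 21 days. The labels give neither the volume and schedule of the vehicle nor the age, sex or number of mice behind an array. Each of the 4 combinations of genotype and treatment had 1 Affymetrix array, so no value below has a replicate error, neighbours in an order of groups cannot be set against a spread, and differences were called by size.

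PDGFs are secreted dimers that act on mesenchymal cells such as fibroblasts, pericytes and smooth muscle cells. PDGF-A and PDGF-B are cut by furin-type proteases inside the cell, whereas PDGF-C and PDGF-D leave the cell as latent proteins and are activated outside it by proteases such as tissue plasminogen activator. The receptor PDGFRα binds the A, B and C chains and PDGFRβ mainly B and D, and both are receptor tyrosine kinases that drive migration, division and matrix production, which is why the pathway is studied in fibrosis. Pdgfrl encodes a protein that resembles the outer part of a PDGF receptor but has no kinase domain.

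For 4 genes of the family, the 250 bases before a transcription start in the RefSeq table (GRCm38.p6) are shown. They let the sequence context of a receptor gene called higher in wild type (Pdgfra) be read beside that of ligand genes. Those ligand genes were not called on their brightest probe sets (Pdgfc, Pdgfd, Pdgfa). Pdgfb, Pdgfrb and Pdgfrl are not shown, which does not mean that the table lacks a window for each of them. Capitals mark matches to the motifs searched on both strands, which were the GC box GGGCGG, the CCAAT box, the TATA box TATAAA and the AP-1 site TGANTCA. The windows lie at chr5:75152001-75152250 on the plus strand (Pdgfra), chr3:81036166-81036415 on the plus strand (Pdgfc), chr9:6168236-6168485 on the plus strand (Pdgfd) and chr5:138994945-138995194 on the minus strand (Pdgfa), each written 5′ to 3′ along the gene.
Pdgfra: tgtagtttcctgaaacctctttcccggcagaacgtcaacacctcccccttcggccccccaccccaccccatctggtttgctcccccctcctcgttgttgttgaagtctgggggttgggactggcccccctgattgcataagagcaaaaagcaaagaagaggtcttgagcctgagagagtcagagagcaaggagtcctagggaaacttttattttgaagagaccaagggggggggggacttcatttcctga
Pdgfc: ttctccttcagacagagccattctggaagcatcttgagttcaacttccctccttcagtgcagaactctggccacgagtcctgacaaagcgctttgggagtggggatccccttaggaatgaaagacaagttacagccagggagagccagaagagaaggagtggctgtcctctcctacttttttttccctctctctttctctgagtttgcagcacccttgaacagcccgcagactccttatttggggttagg
Pdgfd: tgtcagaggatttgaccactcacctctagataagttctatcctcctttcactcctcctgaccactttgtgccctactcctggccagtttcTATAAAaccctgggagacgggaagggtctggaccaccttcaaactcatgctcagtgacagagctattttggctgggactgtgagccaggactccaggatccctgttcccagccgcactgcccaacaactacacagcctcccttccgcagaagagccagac
Pdgfa: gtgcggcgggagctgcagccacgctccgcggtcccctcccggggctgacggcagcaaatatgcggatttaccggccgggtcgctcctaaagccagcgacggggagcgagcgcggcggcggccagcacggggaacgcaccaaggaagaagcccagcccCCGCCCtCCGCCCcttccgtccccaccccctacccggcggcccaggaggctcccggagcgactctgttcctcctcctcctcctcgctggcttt
The Pdgfa window held 2 GC boxes, both as the reverse complement, 93 and 86 bases before the start, and had a GC content of 72.4%, against 54.4% for Pdgfra, 53.6% for Pdgfd and 50.8% for Pdgfc and a median of 52.4% over 32851 windows of the table. The Pdgfd window held 1 TATAAA, 160 bases before the start, and the Pdgfra and Pdgfc windows held none of the 4 motifs. A second Pdgfa start, with its window at chr5:138994282-138994531, had 1 GC box 60 bases upstream and a GC content of 66.4%. Of all windows, 32.7% held GGGCGG, 33.8% CCAAT, 12.4% TATAAA and 6.75% TGANTCA. A match here is a match of letters, not a measured binding site.

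The wild-type vehicle array stood apart from the others in some of its control probe sets. It read 1052 for 18S ribosomal RNA (scaled signal) where the others read 81.5 to 108, and the beta-actin signal near the 3′ end was 5.81 times that of the middle there and 2.23 to 2.84 times elsewhere. Ratios of 3′ to 5′ signal differed less, at 1.22 for beta-actin (1.07 to 1.15 elsewhere) and 0.85 for Gapdh (0.81 to 0.82 elsewhere). The share of probe sets called Present (detected above mismatch background) was 50.5% there and 52.5% to 55.1% elsewhere. Every wild-type CG difference rests on this array, so that difference is also given below against the transgenic vehicle array, which mixes treatment with genotype. Arrays were scaled to a common trimmed mean, and signals below are scaled signals unless log2 is named. Of the 15 probe sets, 14 were Present on all 4 arrays, and the exception, the Pdgfd probe set 1446691_at, was Absent on all 4 with signals of 1.82 to 5.03 and is given no fold.

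Pdgfra, the receptor of the A, B and C chains, had the highest CG difference of the family in wild type against its own vehicle array, whereas against the transgenic vehicle array Pdgfrl was highest (log2 1.40, and 0.84 for Pdgfra). On its brightest probe set, 1421917_at, the signal was 526 (wild type, vehicle), 1184 (wild type, CG), 659 (transgenic, vehicle) and 903 (transgenic, CG). Both CG arrays lay above both vehicle arrays, and the wild-type arrays were the lowest and the highest of the 4. This was 2.25-fold higher with CG in wild type (log2 difference 1.17) and 1.37-fold in the transgenic (0.45), and the wild-type CG signal was 1.796-fold that of the transgenic vehicle array. In bulk RNA, more cells of a type and more RNA per cell cannot be told apart.

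The other Pdgfra probe sets also gave higher signals with CG, but not with the same balance between genotypes. Probe set 1421916_at read 24.5, 97.8, 47.3 and 91.5 in the same order, 4.0-fold higher with CG in wild type and 1.94-fold in the transgenic, and the wild-type CG signal was 2.07-fold that of the transgenic vehicle array. The detection p-value, which the array software computes within each array, was 0.0461 on the wild-type vehicle array, and the signal there lay below the 25th percentile of Present signals, so this fold starts from a weak base. Probe set 1438946_at read 32.2, 49.9, 26.3 and 55.4, which is 1.55-fold higher in wild type and 2.10-fold in the transgenic. Its signals on both vehicle arrays also lay below the 25th percentile of Present signals, with detection p-values from the array software of 0.0142 (wild type) and 0.0186 (transgenic). Both folds thus start from a weak base. Here the transgenic arrays were the lowest and the highest, and the wild-type CG signal was 1.896-fold that of the transgenic vehicle array.

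Pdgfrb, the receptor of the B and D chains that marks pericytes and fibroblasts, differed less with CG. Its brightest probe set, 1436970_a_at, read 359 (wild type, vehicle), 481 (wild type, CG), 350.3 (transgenic, vehicle) and 455 (transgenic, CG). The signal was thus 1.34-fold higher with CG in wild type and 1.30-fold in the transgenic, and the vehicle arrays were close to each other, as were the CG arrays. The second probe set, 1417148_at, read 61.0, 125, 79.5 and 126, or 2.05-fold and 1.59-fold higher. The wild-type CG array read 1.37-fold (first probe set) and 1.57-fold (second) over the transgenic vehicle array. The detection p-value of this probe set lay between 0.0186 and 0.0461 on all arrays, near the edge of detection.

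Pdgfrl, the receptor-like gene without a kinase domain, read 134 (wild type, vehicle), 292 (wild type, CG), 110.2 (transgenic, vehicle) and 198 (transgenic, CG) on probe set 1428896_at. Both CG arrays were above both vehicle arrays, and within each treatment the transgenic signal was below the wild-type one. CG went with a 2.18-fold higher signal in wild type (log2 difference 1.12) and 1.8-fold in the transgenic (0.85), the highest transgenic difference among the 7 genes on their brightest probe sets. The wild-type CG signal was 2.65-fold that of the transgenic vehicle array. A further probe set, 1454824_s_at, is described as Pdgfrl in the array files but assigned to Mtus1 in the annotation used here, and Mtus1 is the next gene on the chromosome in the RefSeq order. It read 522, 330.4, 649 and 440, lower with CG in both genotypes (log2 differences -0.66 and -0.56), and was not counted as Pdgfrl.

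**Figure D1:**
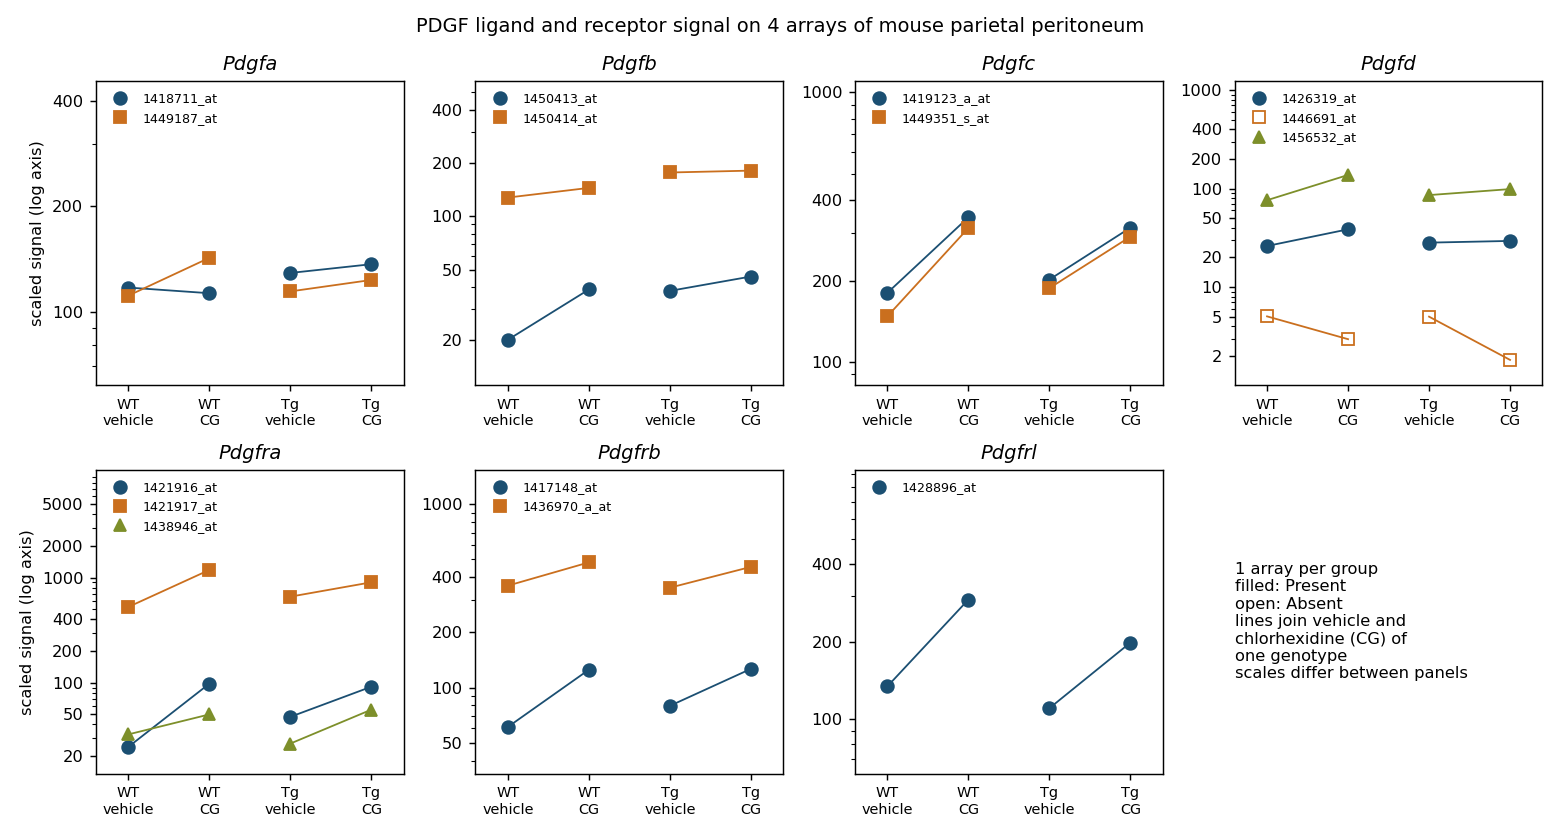
Scaled signal (log axis) of every probe set of the 7 genes on the 4 arrays, 1 array per group, with filled markers for Present and open markers for Absent calls; lines join the vehicle and CG arrays of a genotype and the scales differ between panels. Pdgfc, Pdgfra, Pdgfrb and Pdgfrl step up from vehicle to CG in both genotypes, whereas the brightest probe sets of Pdgfa and Pdgfb are nearly level.

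Among the ligands, Pdgfc, which encodes a latent ligand of PDGFRα, was the highest relative to vehicle over both genotypes. Its probe set 1419123_a_at read 181 (wild type, vehicle), 344 (wild type, CG), 202 (transgenic, vehicle) and 315 (transgenic, CG), and its other probe set, 1449351_s_at, read 148, 314, 188 and 292. The probe sets gave the same order of arrays, with wild-type vehicle lowest and wild-type CG highest. CG went with 1.91-fold and 2.13-fold higher signals in wild type and with 1.56-fold and 1.55-fold in the transgenic. The wild-type CG signals were 1.70-fold and 1.67-fold those of the transgenic vehicle array.

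Pdgfd, the latent ligand of PDGFRβ, was 1.804-fold higher with CG in wild type and 1.15-fold in the transgenic. Its brightest probe set, 1456532_at, read 76.2 (wild type, vehicle), 137 (wild type, CG), 85.9 (transgenic, vehicle) and 98.8 (transgenic, CG). The wild-type CG array was the brightest of the 4, and the other 3 arrays read 76.2 to 98.8. Probe set 1426319_at read 26.1, 38.6, 28.2 and 29.4 and had the same order, with 1.48-fold and 1.04-fold. Over the transgenic vehicle array the wild-type CG signal was 1.601-fold on the first and 1.37-fold on the second. How far genotypes differ in this gene has no test with 1 array per group.

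Pdgfa, whose product binds PDGFRα, did not have a direction shared by its probe sets in wild type. Probe set 1418711_at read 117, 113, 129 and 136.5, and 1449187_at read 111, 142, 114.1 and 123.1, in the order used above. The wild-type CG array was the lowest of the 4 on the first and the highest on the second. The log2 differences with CG were -0.054 and 0.36 in wild type and 0.083 and 0.11 in the transgenic, and -0.19 and 0.32 for wild-type CG over transgenic vehicle.

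Pdgfb, the B chain that is classically made by endothelial cells, platelets and macrophages, differed more between the vehicle arrays than between treatments in the transgenic. Its brightest probe set, 1450414_at, read 128 (wild type, vehicle), 145 (wild type, CG), 177 (transgenic, vehicle) and 181 (transgenic, CG), so both transgenic arrays were above both wild-type arrays. CG differences were 1.13-fold and 1.02-fold. The dimmer probe set, 1450413_at, read 20.1, 38.7, 38.0 and 45.8, with the wild-type vehicle array alone at the bottom and differences of 1.92-fold and 1.205-fold. Neither wild-type difference held against the transgenic vehicle array, where the log2 differences were -0.29 on the brighter probe set and 0.026 on the dimmer.

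Calls by size took the brightest probe set of each gene and required a log2 difference of at least 1 (2-fold), with a Present call and a signal at or above the 25th percentile of Present signals on the brighter array. In wild type, 2 of the 7 genes were called higher with CG (Pdgfra and Pdgfrl) and none lower (Pdgfrl alone against the transgenic vehicle array), against 8.22% of 12754 detected genes called higher and 4.93% called lower. Counting probe sets, 5 of 15 were called higher (2 of Pdgfra and 1 each of Pdgfc, Pdgfrb and Pdgfrl), against a background of 9.19%. In the transgenic, 0 of 7 genes were called, against 3.81% higher and 1.4% lower, and 1 of 15 probe sets (Pdgfra 1438946_at), against 3.07%. No member was called higher in both genotypes, which held for 3.03% of genes.

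Of the 14 probe sets Present on all arrays, 13 were higher with CG in wild type and 14 in the transgenic, against 54.4% and 49.6% of 20332 probe sets with the same calls. For 12 of the 14, both CG arrays were above both vehicle arrays, against 31.4% of probe sets, and so were 5 of the 7 genes on their brightest probe set (all but Pdgfa and Pdgfb), against 30.1% of genes. The median log2 difference over the 14 probe sets was 0.89 in wild type and 0.42 in the transgenic, against 0.07 and -0.0039 over all such probe sets. These counts moved with the scaling, as was examined after seeing the data. With the deposited scale, 14 were higher in wild type and 9 in the transgenic (69.4% and 30.4% of all probe sets), and both CG arrays were above both vehicle arrays for 8 (24.7%). With quantile, median or loess scaling the counts were 12 to 13 in wild type, 12 to 13 in the transgenic and 10 for both. Probe sets of a gene share a transcript, so the 14 are not independent of each other. Set among all detected genes, 8.11% were at least as high as Pdgfra in wild type and 8.08% at least as high as Pdgfrl in the transgenic, and for Pdgfc the shares were 11.96% and 12.6%.

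**Figure D2:**
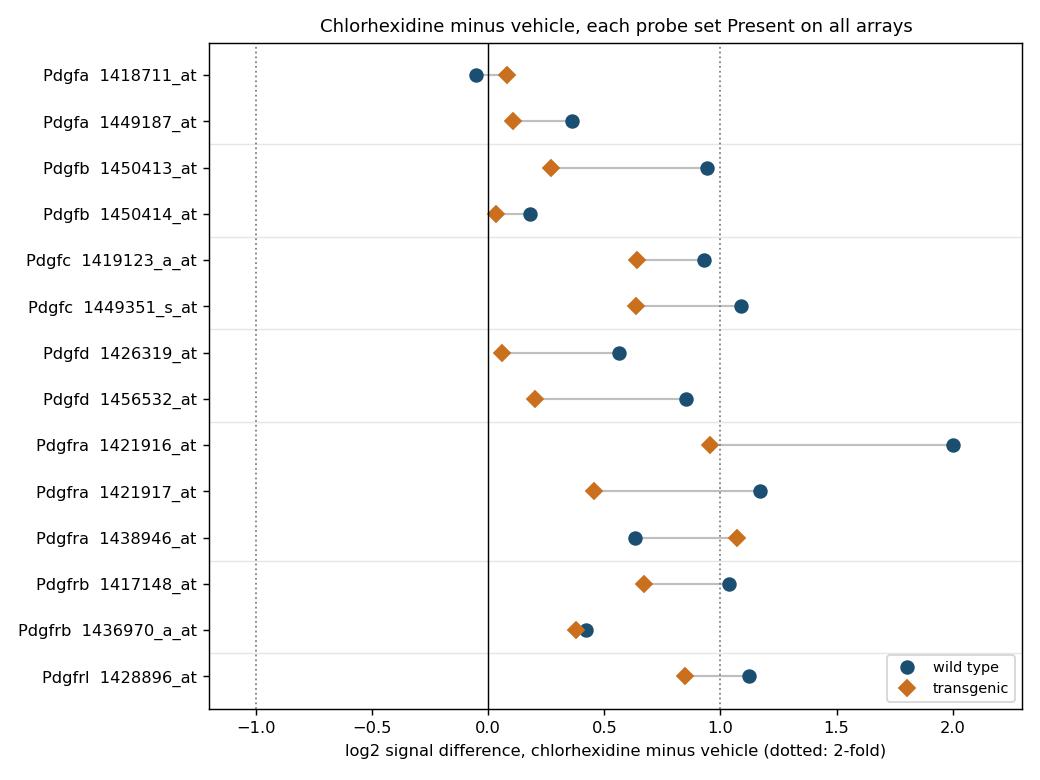
Log2 difference, CG minus vehicle, of the 14 probe sets Present on all arrays, in wild type (circles) and transgenic (diamonds) peritoneum, 1 array per group; the solid line marks no difference and dotted lines mark 2-fold. The wild-type values run from -0.054 to 2.0 and the transgenic values from 0.035 to 1.07, and 12 of the 14 wild-type values lie to the right of the transgenic value.

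An additive model of treatment and genotype was fitted with limma over 12754 genes, with 1 residual degree of freedom. In this model a CG difference that is unequal in the genotypes counts as error. After Benjamini-Hochberg adjustment it called 12 genes (0.0941%) for treatment and no member. A limma fit of treatment alone, with the genotypes taken as replicates, called 82 genes and again no member. Pdgfrl came nearest, at a log2 coefficient of 0.98 ± 0.221 (SE, limma adjusted p = 0.106, Benjamini-Hochberg), higher with CG in both genotypes. Pdgfc had 0.78 ± 0.222 (limma adjusted p = 0.146) and Pdgfra 0.81 ± 0.268 (limma adjusted p = 0.183), both also higher in both genotypes. These 3 had unadjusted limma p-values of 0.00744 to 0.0309, as 23.0% of all genes did under the threshold of 0.05. Pdgfd (0.53 ± 0.259), Pdgfrb (0.40 ± 0.212), Pdgfb (0.11 ± 0.214) and Pdgfa (0.01 ± 0.214) had limma adjusted p-values of 0.295 to 0.974.

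The transgene's comparison with wild type gave no 2-fold difference in any member under either treatment. Under vehicle, 0 of 7 genes and 0 of 15 probe sets were called, against 1.46% of genes and 2.86% of probe sets called in either direction. The transgenic signal was the higher one in 11 of the 14 probe sets, a direction found in 50.6% of all (9 to 10 under quantile, median or loess scaling, and all 14 with the deposited scale, as for 89.7% of probe sets), with log2 differences from -0.29 to 0.95. Those near the top were the dimmer probe sets of Pdgfra and Pdgfb (1421916_at and 1450413_at, 0.95 and 0.92), both resting on signals under 25 on the wild-type vehicle array that stood apart. Pdgfb was also higher on its brighter probe set (0.47, 1.38-fold), and Pdgfrl was lower (-0.28, 1.22-fold lower), but higher on the deposited scale (0.13).

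Under CG, again 0 of 7 genes and 0 of 15 probe sets were called, against backgrounds of 1.75% and 1.59% in either direction. This comparison does not use the wild-type vehicle array. The transgenic signal was the higher one in 5 of 14 probe sets (45.4% of all), and differences ran from -0.56 to 0.32. Pdgfrl was 1.47-fold lower in the transgenic, Pdgfd 1.39-fold lower on its brightest probe set and 1.31-fold on the other (log2 -0.48 and -0.39), and Pdgfra 1.31-fold lower on its brightest probe set. The remaining Pdgfra probe sets differed by -0.10 and 0.15. Pdgfb was 1.25-fold and 1.18-fold higher, and Pdgfc and Pdgfrb differed by at most 1.09-fold.

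**Figure D3:**
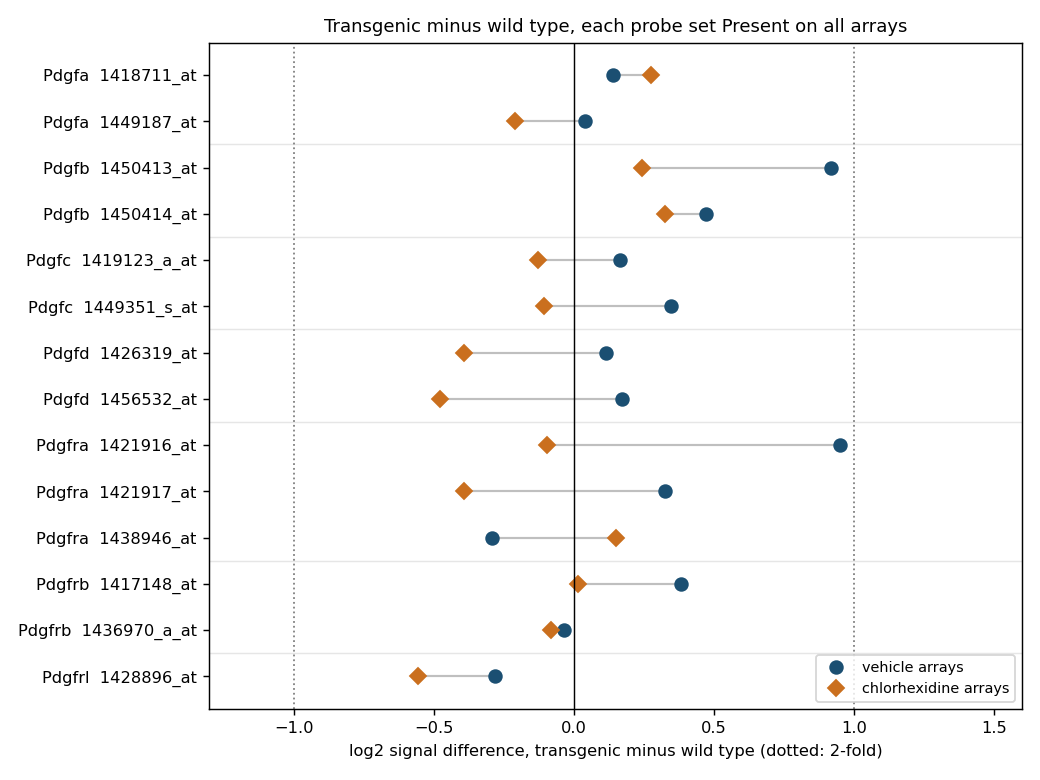
Log2 difference, transgenic minus wild type, of the 14 probe sets Present on all arrays, between the vehicle arrays (circles) and between the CG arrays (diamonds), 1 array per group; dotted lines mark 2-fold. No point reaches 2-fold, and for 11 of the 14 probe sets the circle lies above 0 while 5 of the 14 diamonds do.

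The CG difference was the larger one in wild type for 12 of the 14 probe sets, a direction found in 54.2% of all (11 to 14 under the other scalings, with 85% of all probe sets on the deposited scale), the exceptions being Pdgfa 1418711_at and Pdgfra 1438946_at. This contrast rests on the wild-type vehicle array that stood apart. With 1 vehicle array shared by both genotypes, it would equal the comparison under CG. There the transgenic signal was the higher one in 5 of the 14 probe sets (45.4% of all). The difference between the genotypes' CG differences reached 2-fold in 0 of 7 genes, against 4.94% of genes in either direction, and in 1 probe set, Pdgfra 1421916_at (-1.05), against 6.9% of probe sets. On the brightest probe sets it was -0.72 for Pdgfra, -0.65 for Pdgfd, -0.29 for Pdgfc, -0.27 for Pdgfrl, -0.15 for Pdgfb, -0.04 for Pdgfrb and 0.14 for Pdgfa, with a median of -0.27 against 0.02 over all genes. Probe sets of one gene on the same arrays also disagreed with each other, which is technical spread and holds no variation between mice. Over the 6 members with more than 1 detected probe set it had a pooled SD of 0.464 for this difference, and 0.480 over all genes with several. For the CG differences themselves the members' SD was 0.473 in wild type and 0.206 in the transgenic, against 0.454 and 0.294 over all such genes.

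Proteases that process PDGF chains were described from a list of 7, of which 5 were detected. In wild type 2 were called higher with CG and in the transgenic 1, with none lower and list medians of 0.16 and 0.36. The background for this and every list below is the share of all detected genes called. It was 8.22% higher and 4.93% lower in wild type, and 3.81% and 1.4% in the transgenic. Pcsk5, a furin-type convertase, was the one called in both genotypes (signal 93.8 to 279 in wild type and 108 to 251 in the transgenic, 2.98-fold and 2.32-fold higher). Plat, the tissue plasminogen activator that activates PDGF-C, was 3.31-fold and 1.75-fold higher (108 to 356 and 153 to 268). Pcsk7 and Pcsk6, other convertases, had log2 differences of 0.16 and -0.44 in wild type and 0.36 and -0.01 in the transgenic. Furin itself was Present on all 4 arrays and not called, with -0.01 in wild type and 0.25 in the transgenic. The extracellular activators of PDGF-D, Plau and St14, were Absent on all 4 arrays.

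Of 8 co-receptors and binding proteins, 4 were called higher in wild type and 1 in the transgenic, none lower, with medians of 0.76 and 0.32. Over all genes the shares called higher were 8.22% and 3.81% and the medians -0.00088 and 0.0012. Lrp1, an endocytic co-receptor of PDGFRβ, was called in both genotypes (580 to 1243 and 568 to 1161, 2.14-fold and 2.05-fold). Sparc, a matrix protein that binds PDGF-B, was 2.51-fold and 1.79-fold higher. The neuropilins Nrp1 and Nrp2 were 2.29-fold and 2.60-fold higher in wild type and 1.36-fold and 1.08-fold in the transgenic. The others were not called: Dcn had log2 differences of 0.43 and 0.20, Gas6 0.41 and 0.60, A2m 0.32 and -0.61, and Cspg4 -0.026 and 0.068.

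The receptor's signalling adaptors and enzymes, by contrast, had a median near that of all genes. Of 36 listed, 29 were detected, with medians of 0.07 and -0.09, and 1 was called higher and 1 lower in wild type and 0 in the transgenic. Those called were the GTPase gene Nras (2.13-fold higher) and Stat5b, a transcription factor (2.20-fold lower). The kinase gene Fyn had log2 differences of 0.97 and 0.58, and Src was at least 1.70-fold higher in wild type and not Present on the transgenic CG array. Among 11 detected negative regulators of the receptors, 2 were called higher in wild type and 1 in the transgenic, with medians of 0.30 and 0.25. Socs3, a cytokine-induced inhibitor, was called in both (235 to 532 and 209 to 496, 2.26-fold and 2.37-fold), and Ptprj, a phosphatase that acts on PDGF receptors, was 2.14-fold and 1.32-fold higher. Ptpn1, also a phosphatase, had 0.65 and 0.33, and the adaptor gene Sla 0.57 and 0.45.

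Genes classically induced by PDGF in cultured fibroblasts were higher with CG in wild type but not as a list in the transgenic. Of 7, 6 were called higher in wild type (median 1.73), whereas 1 was called higher and 1 lower in the transgenic (median 0.06). Ccl2, a monocyte chemokine, was the one called higher in both (13.3-fold and 7.52-fold). Higher in both but called in wild type alone were Myc (3.41-fold and 1.91-fold), Ccnd1 (2.89-fold and 1.45-fold) and Cxcl1 (3.32-fold and 1.04-fold). The immediate early genes Fos and Egr1 had log2 differences of 1.33 and 2.03 in wild type and -1.29 and -0.70 in the transgenic. Their signals were already 3.197-fold and 3.10-fold higher on the transgenic than on the wild-type vehicle array, and the list's median between vehicle arrays was 0.70. Many stimuli other than PDGF induce these genes.

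The receptors most closely related to the PDGF receptors were described as a list of 6, all detected, with 2 called higher in wild type and 0 in the transgenic (medians 0.24 and 0.13). These were the VEGF receptor genes Kdr (log2 difference 1.42 in wild type and -0.32 in the transgenic) and Flt4 (at least 2.80-fold higher in wild type). Kit, the next gene to Pdgfra on its chromosome, had 0.19 and 0.56, and Csf1r, the next gene to Pdgfrb, had 0.28 and 0.38. Flt1 had -0.56 and -0.21. Of 9 listed ligands of these receptors, 7 were detected and 1 was called, Csf1 in wild type (2.08-fold, and 1.55-fold in the transgenic), with medians of 0.11 and -0.20. Vegfd had 0.67 and 0.98, Vegfb -0.95 and -0.42, and Vegfa 0.11 and -0.83.

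Markers of the cells that carry PDGF receptors moved with the family in part. Of 13 detected fibroblast markers, 4 were called higher in wild type and 3 in the transgenic (medians 0.82 and 0.45), and their summed signal was 23562 and 30128 in wild type (vehicle and CG) and 23685 and 29448 in the transgenic. Mfap5 was 3.00-fold and 2.78-fold higher, Col14a1 2.72-fold and 2.22-fold, Fbln1 2.56-fold and 1.99-fold and Pi16 2.10-fold and 2.21-fold. The other fibroblast markers were not called. Of these Gsn, a bright one, was lower with CG in both genotypes (log2 differences -0.51 and -0.03), and the rest were higher in both. Among the rest were Lum (0.82 and 0.54), Thy1 (0.53 and 0.13), Dpt (0.47 and 0.29) and Cd34 (0.46 and 0.42). The 12 detected pericyte and vascular smooth muscle markers had medians of 0.08 and 0.05, summed signals of 7340 and 7071 in wild type and 7408 and 6431 in the transgenic, and 3 called higher in wild type (Ndufa4l2 at least 3.46-fold, Cnn1 at least 2.17-fold and Tagln 2.06-fold) and 0 in the transgenic. In the same list Abcc9 was 1.34-fold and 1.32-fold lower, Rgs5, the brightest, 1.36-fold and 1.28-fold lower and Notch3 1.41-fold and 1.08-fold lower. Higher in both genotypes but not called were Acta2 (log2 differences 0.39 and 0.03), Myh11 (0.14 and 0.02) and Higd1b (0.02 and 0.36). What part the cell make-up has in the receptor differences was not tested.

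Sources of PDGF-B and of other ligands were read the same way. Of 11 endothelial markers, 3 were called higher in wild type (Kdr, Eng 2.32-fold and Emcn 2.01-fold) and 0 in the transgenic, with medians of 0.64 and -0.02 and summed signals of 1416 and 2058, then 1659 and 1672. Tie1 was 1.99-fold and 1.23-fold higher. The rest were not called and were mixed in direction. Cdh5 had log2 differences of -0.07 and 0.09, Tek -0.07 and -0.02, Esam -0.22 and -0.21 and Cldn5 0.17 and -0.59. Pecam1 had 0.64 and -0.02, Egfl7 0.76 and -0.10 and Vwf 0.25 and 0.36. All 9 macrophage markers were detected, 3 called higher in wild type and 2 in the transgenic (medians 0.59 and 0.51), and their sums were 5733 and 9109, then 6103 and 9018. Cd68 (3.22-fold and 2.26-fold) and the Fc receptor gene Fcgr1 (6.65-fold and 4.73-fold) were called in both, Mrc1 was 2.34-fold and 1.87-fold higher and Adgre1 1.79-fold and 1.42-fold. Of 10 platelet markers 7 were detected, 3 called higher in wild type and 4 in the transgenic (medians 0.77 and 1.83), with sums of 785 and 908, then 725 and 1229. Ppbp (2.16-fold and 3.81-fold) and Itgb3 (2.55-fold and 2.25-fold) were called in both genotypes, Itga2b in wild type (2.43-fold), and Gp1bb and Clec1b in the transgenic (at least 3.54-fold and 4.56-fold). Gp9 was at least 10.9-fold higher in the transgenic but just under the brightness needed for a call. Pf4, the brightest of the list, was not called (641 to 621 in wild type and 572 to 722 in the transgenic, log2 differences -0.04 and 0.34).

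The labelled tissue could be checked against its mesothelial markers, which line the peritoneum. All 10 were detected on at least 1 array, and their summed signal was 771 and 444 in wild type and 612 and 677 in the transgenic. In wild type 3 were called lower with CG (Krt19 4.01-fold, Upk3b 3.36-fold and Nkain4 at least 2.61-fold) and the median was -0.76, and in the transgenic 1 was called higher and the median was 0.32. That gene was Wt1, higher with CG in both genotypes (1.93-fold in wild type, 2.40-fold in the transgenic). Lrrn4 had log2 differences of -0.82 and -0.52. Skeletal muscle genes were far brighter than these mesothelial markers on all 4 arrays. The 11 markers of muscle summed to 84806 to 103122, highest on the wild-type vehicle array, with 0 called and medians of -0.21 and 0.08. Among them Tnnt3 had log2 differences of -0.43 and -0.07, Myh1 -0.31 and 0.05, Atp2a1 -0.24 and 0.08, and Tnni2 -0.23 and 0.02.

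Other cell types in the samples also differed between arrays. Of 5 detected adipocyte markers, 4 were called lower in wild type and 2 in the transgenic (medians -1.46 and -0.70), with sums of 11755 and 6299, then 11983 and 8876. Cidec was 2.60-fold and 2.29-fold lower, and Lep was Absent on both CG arrays (signal 169 to 24.3 and 354 to 3.03), while Adipoq (2.74-fold and 1.62-fold) and Retn (3.21-fold and 1.16-fold) reached 2-fold only in wild type. All 5 detected B and plasma cell markers were called lower in both genotypes (medians -4.28 and -2.47), with sums of 4178 and 145, then 1786 and 224, led by Jchain (41.9-fold and 9.29-fold lower), Cd79a (at least 19.4-fold and 13.9-fold), Ms4a1 (at least 24.9-fold and 5.55-fold) and Mzb1 (15.1-fold and 4.92-fold). The 2 detected red blood cell genes, Slc4a1 and Alas2, were 19.5-fold and 7.85-fold higher in the transgenic with CG (list median 3.63) and not called in wild type (median 0.22). The part of these cells in the values of the PDGF genes was not tested.

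The wild-type counts and medians of the lists were also taken against the transgenic vehicle array, a choice made after seeing the data. The median of the 7 PDGF genes was then 0.68. Among the pathway lists it was 0.28 for the proteases, 1.02 for the co-receptors, -0.10 for the adaptors and enzymes and 0.25 for the negative regulators, with 2, 3, 1 and 1 genes called higher and none lower. The PDGF-induced genes changed most among these, from 6 called and a median of 1.73 to 3 called and 0.47. The related receptors had 0.62 and their ligands 0.20, with 1 called higher in each. Fibroblast markers had 2 called and a median of 0.61, pericyte and smooth muscle markers 1 and 0.13, endothelial markers 1 and 0.32, macrophage markers 2 and 0.70, and platelet markers 1 and 1.04. Mesothelial markers had 1 called higher and 1 lower (median -0.47), muscle markers 0 (0.076), adipocyte markers 4 lower (-1.53), B and plasma cell markers 5 lower (-3.23) and red blood cell genes 0 (1.16).

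**Figure D4:**
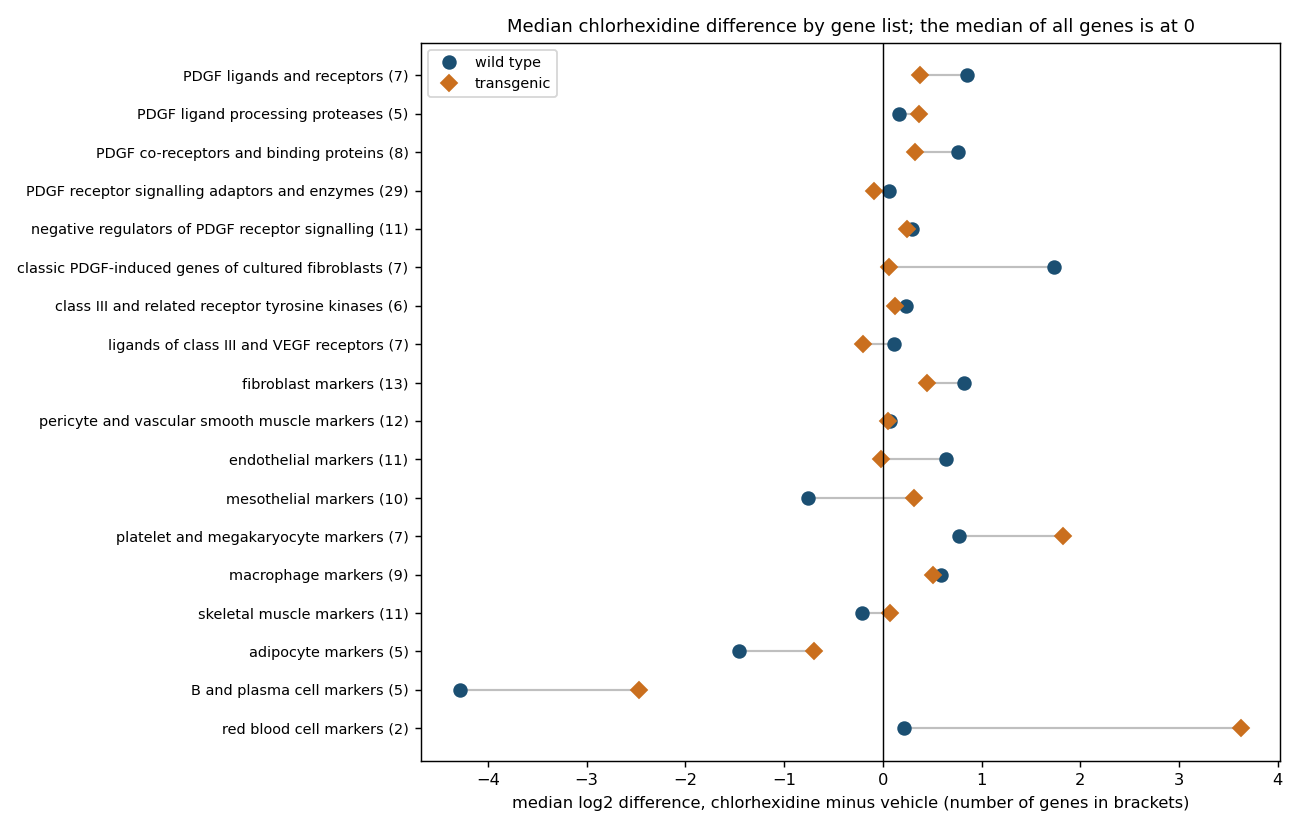
Median log2 difference, CG minus vehicle, of the 7 PDGF genes and of each list of related genes and cell type markers, in wild type (circles) and transgenic (diamonds) peritoneum, over the genes Present on at least 1 array. The PDGF genes (0.85 and 0.38), the co-receptors (0.76 and 0.32), the fibroblast markers (0.82 and 0.45) and the macrophage markers (0.59 and 0.51) lie above 0 in both genotypes, and the pericyte and smooth muscle markers (0.08 and 0.05) near it. Also above 0 in both are the platelet markers (0.77 and 1.83), red blood cell genes, negative regulators, related receptors, proteases and PDGF-induced genes.

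Genes whose 4-array pattern was nearest to each member were found among 10406 genes Present on all arrays, by Euclidean distance of log2 signals centred on each gene's mean. Nearest to Pdgfc was Col4a2, a basement membrane collagen chain, at a distance of 0.0214 (log2 differences 0.92 and 0.64), then Nupr1 and Synj1. Pdgfra had Sp3 (0.0326), BC005537 and Maged1, and Pdgfrl had Chpf2 (0.0225), Incenp and Antxr1. For Pdgfd they were Myzap (0.0412), Ube2e2 and Ppfibp1, and for Pdgfrb Glce (0.0344), Mindy3 and Timd4. Pdgfa was nearest to Deptor (0.0281), Napa and Nampt, and Pdgfb to Vps72 (0.0371), Gypc and Comp. Within the family the closest pair was Pdgfc and Pdgfra (0.220), a ligand and its receptor, then Pdgfa and Pdgfb (0.254), and the most distant was Pdgfb and Pdgfrl (1.2). Pdgfc and Pdgfra each lay closer to their nearest genes named above (up to 0.0552 and 0.0619) than to each other. All these distances are over only 4 arrays and describe these libraries.

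Directions of the members were compared over 12 settings of scaling, probe set summary, filter and threshold, which all keep each genotype's own vehicle array. In wild type Pdgfra stayed between 0.99 and 1.42 on the log2 scale, Pdgfrl between 0.94 and 1.37, Pdgfc between 0.75 and 1.18, Pdgfd between 0.22 and 1.10 and Pdgfrb between 0.24 and 1.04. In the transgenic Pdgfrl stayed between 0.64 and 0.85, Pdgfc between 0.44 and 0.64, Pdgfra between 0.25 and 0.83 and Pdgfrb between 0.17 and 0.67, whereas Pdgfd ran from -0.40 to 0.20. Pdgfa and Pdgfb crossed 0 in both genotypes. The wild-type difference of the median gene moved with the scaling, from -0.00088 to -0.18 with median centring, -0.11 with quantile normalization and 0.25 with the deposited scale. The split of all wild-type calls moved with it, from 1049 higher and 629 lower to 773 and 1073 with median centring, 868 and 752 with quantile normalization and 1586 and 318 as deposited. In the transgenic it was 486 and 178, against 329 and 320 as deposited. With median centring Pdgfra (0.99) and Pdgfrl (0.94) were just under 2-fold and no member was called in wild type.

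**Figure D5:**
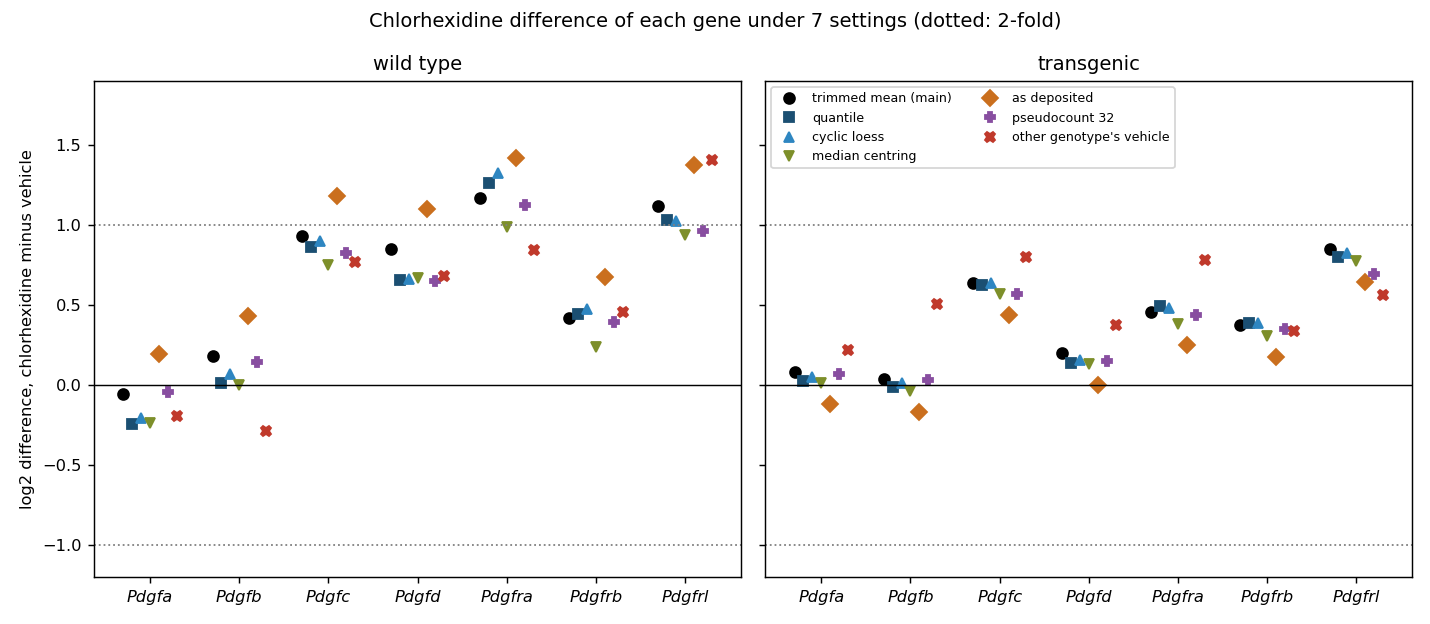
Log2 difference, CG minus vehicle, of the brightest probe set of each gene under 7 settings, in wild type (left) and transgenic (right) peritoneum; dotted lines mark 2-fold. In wild type Pdgfra lies between 0.84 (against the transgenic vehicle array) and 1.42 and Pdgfrl between 0.94 and 1.40, whereas Pdgfa and Pdgfb have values on both sides of 0 in both panels.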

How the data were processed

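Parietal peritoneum RNA was extracted with an RNeasy kit and made into biotin-labelled cRNA, per the labels' protocols. The deposited values are 1 signal per probe set, a linear intensity, each with a detection p-value and the call made from it, per the file headers. For the software and scaling behind them, nothing is stated in the sources used here, and the raw scans, lost per the design text, were not used. The series table held the same intensities (0 values differing). Arrays were multiplied by 1.17, 0.984, 0.877 and 1.01 (wild-type vehicle and CG, transgenic vehicle and CG) to a common 2% trimmed mean, with a floor of 0.1 before the log2. Of 45101 probe sets, 64 were controls and not used, and 34945 of the rest had 1 gene symbol, updated through RefSeq (GRCm38.p6). Each gene was represented by its brightest probe set (by mean log2 signal over the 4 arrays). Calls required 2-fold, a Present call and a signal at or above the 25th percentile on the brighter array. Folds over an array without a Present call used that array's lowest Present signal, or the probe set's own signal if higher, as the base and are written "at least". The additive model used limma 3.58.1 in R 4.3.3 with Benjamini-Hochberg adjustment at 0.05, and its script was tested on simulated data. The number of arrays limits the precision.

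The genes, lists, rules and alternatives were chosen with earlier results of these data known. Named genes were the family, the 3 nearest genes to each, up to 4 genes per list with the largest mean CG difference, and list genes called in both genotypes. Fos, Egr1, Csf1r, Plau, St14, Nkain4, Itga2b, Clec1b, Dcn, Gas6, A2m and Cspg4 were named after their values were seen. So were Pf4, Pecam1, Cdh5, Tek, Egfl7, Cldn5, Esam, Vwf, Rgs5, Notch3, Acta2, Myh11 and Higd1b. The same holds for Furin, Gsn, Lum, Thy1, Dpt and Cd34. Alternatives were quantile, median, loess and deposited scaling, a pseudocount of 32, other filters, probe set summaries and thresholds, and the other genotype's vehicle array.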

Additional observations from a re-analysis of the deposited data

Results flagged for a closer look

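Pdgfa had opposite signs in the genotypes on its brightest probe set, 1418711_at, with a log2 CG difference of -0.054 in wild type and 0.083 in the transgenic. The difference between them was not tested, since each group had 1 array, and its other probe set, 1449187_at, was higher with CG in both genotypes (0.36 and 0.11).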

How the results depend on the processing

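Of 259 values of single genes under settings other than filters and thresholds, 241 moved by less than the SD among probe sets of one gene and 18 by more. Some of the 241 could not move. Dropping suffixed probe sets changed Pdgfrb alone, and the mean of probe sets leaves Pdgfrl, with 1 probe set, as it is. The called values, Pdgfra and Pdgfrl in wild type, did not change sign. Another 140 are fixed by construction, since a filter or threshold leaves the difference as it is. The counts of called members moved more. For genes, percentages in brackets are the share of all detected genes called higher, which moved too. In wild type the 2 genes called (8.22%) became 0 with median centring (6.06%) or a 3-fold threshold (3.32%). They became 1 with a pseudocount of 32 (Pdgfra, 4.6%) or the other genotype's vehicle array (Pdgfrl, 7.23%). They became 3 with the mean of probe sets (Pdgfc added, 7.93%) or without suffixed probe sets (Pdgfrb added, 8.55%). As deposited (12.4%) or at 1.5-fold (16.6%) they became 4. The 5 probe sets called there became 1 with median centring, 2 with the pseudocount, 8 as deposited, 9 at 1.5-fold, 1 at 3-fold and 2 with the other vehicle array. In the transgenic, 0 genes (3.81%) became 2 at 1.5-fold (Pdgfc and Pdgfrl, 9.77%). The 1 probe set called in the transgenic became 0 as deposited, with the pseudocount or at 3-fold. It became 2 without the filter on dim signals, 6 at 1.5-fold and 3 with the other vehicle array. Shares over all probe sets were not taken for these settings. For the difference between the genotypes' CG differences, 0 genes became 2 as deposited or at 1.5-fold (Pdgfd and Pdgfra, both lower). Over all genes 78 were then called higher and 1297 lower as deposited, and 1103 and 1169 at 1.5-fold. With the main setting 254 were called higher and 376 lower. The additive fit called 0 members, and 3 with an intensity trend in limma's prior, under which 19.5% of all genes were called. A looser or stricter threshold changes counts by construction, and for the other settings the cause was not tested.

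No paired analysis was possible because each group had 1 array and the labels give no replicate numbers. Leaving out an array would leave a group empty. With 1 array per group the variation between mice and between arrays is unknown for every difference.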
